A study of Mus musculus with 12 samples.

Results

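Interferon beta, the 2 chains of its receptor and 7 interferon regulatory factors (IRFs) were followed in mouse peritoneal macrophages given apolipoprotein A-I (apoA-I), which makes up most of the protein of high-density lipoprotein. The 10 genes, Ifnb1, Ifnar1, Ifnar2, Irf1, Irf2, Irf3, Irf5, Irf7, Irf8 and Irf9, were found on the array by the gene name of each probe or an older alias, such as Isgf3g for Irf9. All 10 were present, on 15 probes of 60 bases, and all 10 were among the 16745 genes tested. Irf4 was kept apart, in a list of related factors described further on.

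The series asked for the transcripts that apoA-I induces and for their dependence on MyD88, an adaptor protein of Toll-like receptor and interleukin-1 receptor signalling. It compared 4 groups of 3 one-colour arrays: MyD88-null cells with apoA-I, MyD88-null control cells, C57BL/6 cells with apoA-I and C57BL/6 control cells. The C57BL/6 mice carried MyD88. All cells, controls included, came from female mice of 10 weeks and were taken from the peritoneum 96 h after thioglycolate, an irritant that draws macrophages there. In every group the cells were loaded overnight with cholesterol at 10 µg/ml. All of them then spent 30 min with 25 µg/ml of polymyxin B, an antibiotic that neutralises endotoxin. ApoA-I at 10 µg/ml was present for 2 h in the treated cells, and 500 ng of total RNA a sample was labelled with Cy3. Each replicate number was taken to stand for 1 of 3 replicate experiments. The labels do not say which animals or pools gave a sample, so the spread behind every p-value is that of these samples and may be technical. The free-text descriptions of 2 samples go against their titles: MyD88-null apoA-I replicate 2 is described without apoA-I, and C57BL/6 control replicate 2 with it. Titles and source names were followed for both.

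Type I interferons, of which interferon beta is one, are secreted proteins that put cells into an antiviral state. Interferon beta is transcribed after Toll-like receptors or cytosolic nucleic acid sensors activate IRF3, IRF7 and NF-kappaB, which bind an enhancer just upstream of the gene. The protein then binds IFNAR1 and IFNAR2, whose kinases activate STAT proteins, and these join IRF9 to switch on interferon-stimulated genes. In macrophages this loop follows TLR4 and TLR3 through the adaptor TRIF, a branch that works without MyD88.

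A level is given as the log2 processed intensity of a probe relative to the 75th percentile of its array, and a difference as the gap between mean log2 levels of 3 arrays a group. The 75th percentile of processed intensity ran from 199 to 1408 over the arrays, and from 57.6% to 73.6% of probes were well above background. MyD88-null apoA-I replicate 1 had the lowest 75th percentile and the largest share of probes above background. Across genes, which are no independent replicates, arrays of the same group had correlations between 0.915 and 0.979. Levels of different genes come from different probes and were not set against each other. RNA came from whole samples, so fewer cells of a type and less RNA per cell cannot be told apart. Myd88 averaged 1.79 ± 0.358 in MyD88-null controls, against 3.31 ± 0.304 in C57BL/6 controls (SD, n = 3 each). With apoA-I it averaged 2.81 ± 0.416 in MyD88-null cells and 3.96 ± 0.481 in C57BL/6 cells (SD, n = 3 each). MyD88-null cells were the lower in all 3 experiments under both treatments. The differences were -1.52 in control cells (limma, adjusted p = 0.216, or 0.00395 when blocked by experiment, that is with a term for each experiment) and -1.15 with apoA-I (adjusted p = 0.942, or 0.0245 with the block). Whether the probe falls within the deleted part was not determined, so it may not report the deletion.

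Ifnb1 and Irf1 rose with apoA-I in both genotypes, and no other gene of the 10 passed the test in either response. In MyD88-null cells, 2 of 10 genes were higher and 0 lower, where 1.13% of all genes were higher and 0.0119% lower. In C57BL/6 cells the same 2 of 10 were higher and 0 lower, where 0.812% of all genes were higher and 0.0179% lower. The 10 genes were chosen with earlier results of these data known, so the counts are no test against these shares. Ifnb1 was among the genes tested only through its apoA-I arrays, since its probe was not well above background in any control array, so its call adds nothing to a comparison of these counts with the shares. With no filter on dim probes it passed in MyD88-null cells and not in C57BL/6 cells (limma adjusted p = 0.0562), which leaves Irf1 there. The median log2 difference of the 10 was 0.45 in MyD88-null cells and 0.33 in C57BL/6 cells, against medians over all genes of 0.052 in MyD88-null cells and -0.0021 in C57BL/6 cells. At an unadjusted p under 0.05, the 10 counted 3 in each genotype, Irf8 being the third, lower with apoA-I. Over all genes that share was 8.67% in MyD88-null and 7.42% in C57BL/6 cells. Both responses were fitted in a linear model with limma over all 12 arrays, with Benjamini-Hochberg adjustment over the 16745 genes and a threshold of 0.05. In the fit blocked by experiment, 682 genes passed in MyD88-null cells and 570 in C57BL/6 cells, against 191 and 139 without it. Irf8 passed with that block in MyD88-null cells, lower with apoA-I (limma adjusted p = 0.0456).

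**Figure D1:**
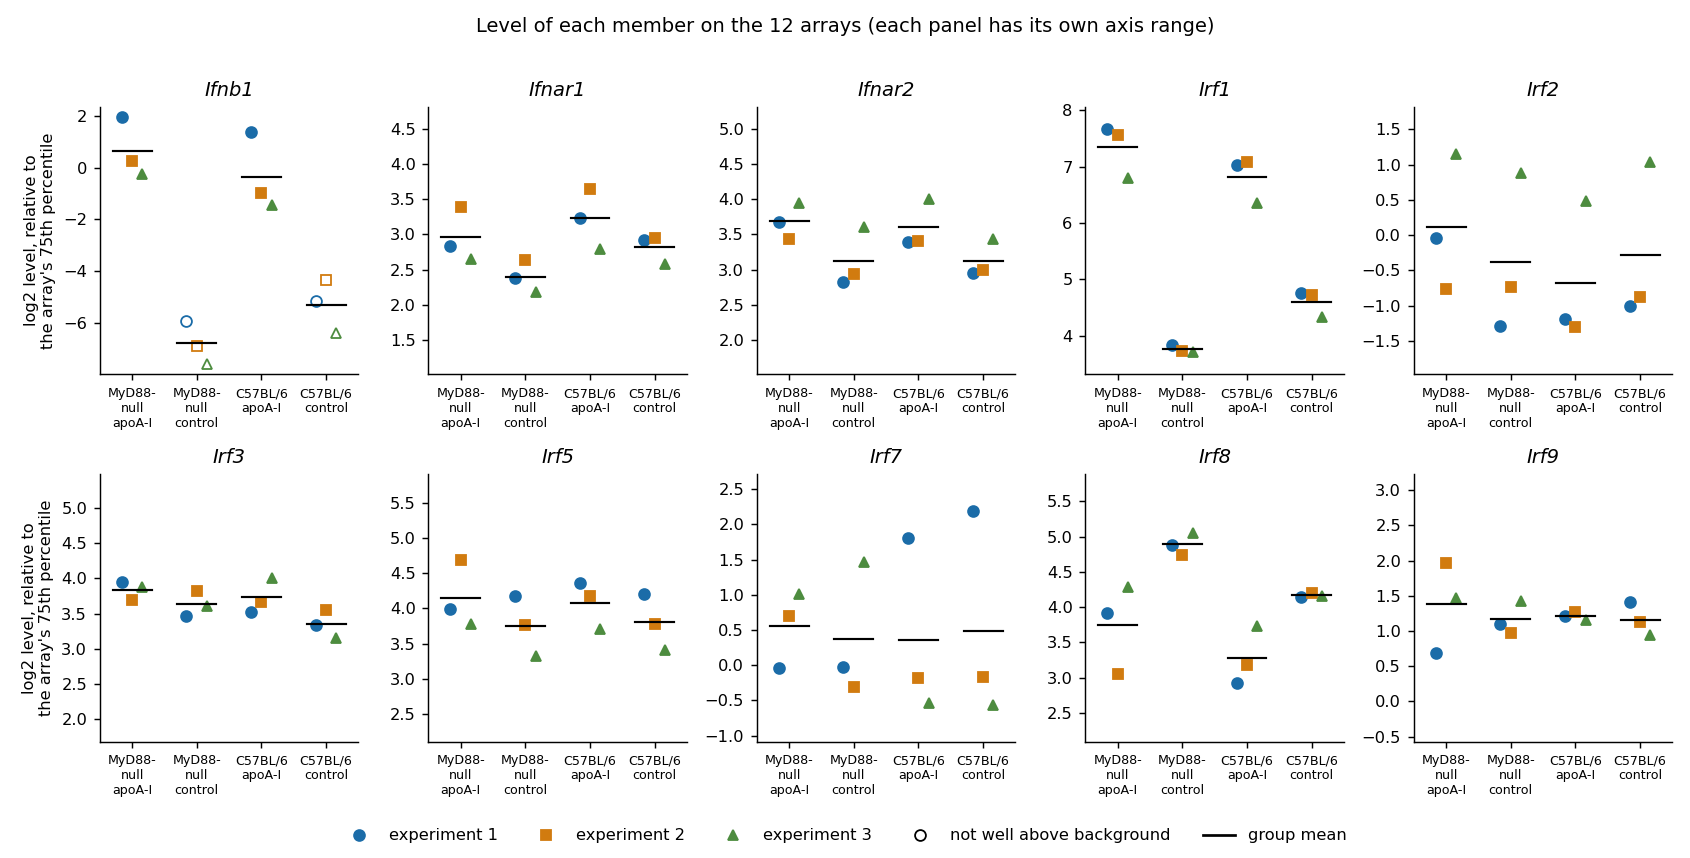
Log2 level of each gene on the 12 arrays, relative to the array's 75th percentile, by group, with 1 panel a gene, 1 marker shape an experiment, bars for group means and open markers where the probe was not well above background. Ifnb1 and Irf1 separate the apoA-I groups from the controls, Irf8 lies lower with apoA-I, and the experiments of Irf2 and Irf7 differ more than the treatments.

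The counts can also be read without the test, from whether the 3 treated and 3 control arrays overlap. Of the 10 genes, 3 lay wholly higher with apoA-I in MyD88-null cells (Ifnb1, Irf1 and Ifnar1), against 6.29% of all genes, and 1 (Irf8) lay wholly lower, against 5.34%. Ifnb1 and Irf1 also lay wholly higher in C57BL/6 cells, against 6.77% of all genes, and Irf8 wholly lower, against 6.35%. Here too Ifnb1 was tested only through its apoA-I arrays, so its separation adds nothing to a comparison with these shares. The panels of levels by group show these separations and the overlap of the other genes.

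Ifnb1 encodes the ligand, interferon beta. Its probe (mm7 chr4:87925845-87925904, minus strand) was at 1.95, 0.24 and -0.24 in experiments 1, 2 and 3 of MyD88-null cells with apoA-I, against -5.91, -6.88 and -7.58 in MyD88-null controls. C57BL/6 arrays read 1.39, -0.99 and -1.45 with apoA-I, against -5.16, -4.32 and -6.38 in controls. All 6 arrays with apoA-I were above all 6 control arrays. The probe was well above background on 3 of 3 arrays of both apoA-I groups and on 0 of 3 of both control groups, so the control level is only bounded.

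The log2 difference was 7.44 in MyD88-null cells (SE 0.855, limma adjusted p = 0.00126, 95% interval 5.54 to 9.34) and 4.94 in C57BL/6 cells (SE 0.855, adjusted p = 0.0284, interval 3.04 to 6.84). On the scale of the processed signals, Ifnb1 was at least 47.8-fold higher with apoA-I in MyD88-null cells and at least 20.7-fold higher in C57BL/6 cells. These bounds hold for that scale only: with normexp background correction, which adds an offset of 50, the log2 difference was 3.81 in MyD88-null cells and 2.71 in C57BL/6 cells, a smaller change than either bound. The bound sets the mean of the apoA-I arrays against the mean of the controls, where each control array counts with the higher of the probe's own signal and the lowest signal among probes well above background. The call in C57BL/6 cells was lost when any 1 of C57BL/6 control replicates 1, 2 or 3, C57BL/6 apoA-I replicates 1 or 2, or MyD88-null control replicate 2 was left out, with adjusted p of 0.0529 to 0.128. Over all ways of processing that were tried and kept the labelled treatments, its adjusted p ran up to 0.259 in C57BL/6 cells and up to 0.0411 in MyD88-null cells.

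By experiment, the response was 7.86, 7.12 and 7.34 in MyD88-null cells, against 6.55, 3.34 and 4.93 in C57BL/6 cells. The test of the difference between the responses gave 2.50 (SE 1.21, 95% interval -0.19 to 5.19), with limma adjusted p = 0.9997 and an unadjusted p of 0.0652 in the same limma fit across all genes. Each of these responses rests on a control level below background, and the controls read lower in MyD88-null than in C57BL/6 cells by differences of -0.75, -2.55 and -1.20, so no order of the responses can be read from them. Over all control arrays the genotypes overlapped. With apoA-I the genotypes also overlapped, at a mean of 0.65 ± 1.15 in MyD88-null and -0.35 ± 1.52 in C57BL/6 cells (SD, n = 3 each). In both of these groups experiment 1 was the highest and experiment 3 the lowest.

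Arrays were scanned on 3 days, and replicates 3 alone were scanned on the third. On day 1 alone the Ifnb1 difference was 6.15 in MyD88-null and 4.94 in C57BL/6 cells. Day 2 held MyD88-null arrays only, with a difference of 8.82. In MyD88-null cells these are single arrays of different experiments, apoA-I replicate 2 against control replicate 1 on day 1 and apoA-I replicate 1 against control replicate 2 on day 2, so day and experiment cannot be told apart in them. On day 3 it was 7.34 in MyD88-null and 4.93 in C57BL/6 cells. The difference thus had the same direction on every day that held both treatments.

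The region just upstream of Ifnb1 is shown because the enhancer named above lies there. RefSeq's promoter table (GRCm38.p6) gave a promoter for all 10 genes, and 2 promoters each for Irf1, Irf8 and Irf9. The 250 bases before each transcription start were searched on both strands for 4 patterns. These were an IRF core (AANNGAAA), which 21.3% of 32851 mouse promoters hold, an interferon-stimulated response element core (GAAANNGAA, 7.13%), a STAT-binding GAS element (TTCNNNGAA, 7.02%) and an NF-kappaB site (GGGANNTTC, 3.23%). The IRF core was added after the others were searched and overlaps the response element core. In the Ifnb1 stretch, chr4:88522882-88522973 on the minus strand, capitals mark 3 IRF cores followed by 1 NF-kappaB match.
Ifnb1: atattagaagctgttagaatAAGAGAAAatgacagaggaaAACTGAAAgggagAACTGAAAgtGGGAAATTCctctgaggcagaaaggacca
The IRF cores begin 159, 139 and 126 bases before the start and the NF-kappaB match 116 bases before it. Ifnb1 was the only promoter of the 10 genes that matched this NF-kappaB pattern. The pattern is 1 narrow form of the site and other forms were not searched, so a promoter without a match may still hold such a site. A match describes letters in the window and does not show binding.

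Ifnar1 encodes the signal-transducing chain of the receptor. Its probe (mm7 chr16:91557140-91557199, plus strand) was at 2.84, 3.38 and 2.65 in apoA-I-treated MyD88-null cells, against 2.38, 2.63 and 2.18 in MyD88-null controls. Among C57BL/6 samples the level was 3.23, 3.65 and 2.80 with apoA-I, against 2.91, 2.95 and 2.58 in controls. Every experiment was higher with apoA-I in both genotypes, but the group means differed by only 0.56 in MyD88-null cells (SE 0.277, limma adjusted p = 0.633) and 0.41 in C57BL/6 cells (SE 0.277, adjusted p = 0.9999). MyD88-null cells lay below C57BL/6 cells in all 3 experiments under both treatments, with differences of -0.42 in controls and -0.27 with apoA-I that did not pass.

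Ifnar2 encodes the other receptor chain, and its transcripts are known to give a membrane-bound and a soluble form. It had 2 probes on mm7 chromosome 16, which lie 11.4 kilobases apart and responded by different amounts. The brighter one (chr16:91444402-91444461), used in the test over genes, was at 3.68, 3.43 and 3.95 in apoA-I-treated MyD88-null cells, against 2.82, 2.94 and 3.60 in MyD88-null controls. For C57BL/6 cells the values were 3.39, 3.40 and 4.01 with apoA-I, against 2.94, 3.00 and 3.43 in controls. Its differences, 0.56 in MyD88-null cells (adjusted p = 0.643) and 0.47 in C57BL/6 cells (adjusted p = 0.931), did not pass limma's test.

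The other Ifnar2 probe (chr16:91455837-91455896) was at 3.54, 3.04 and 3.04 in apoA-I-treated MyD88-null cells, against 1.47, 1.64 and 2.02 in MyD88-null controls. The C57BL/6 cells had levels of 3.11, 3.03 and 3.41 with apoA-I, against 1.96, 1.67 and 2.27 in controls. The treated and control arrays did not overlap in either genotype. When limma was run over the 24351 probes one by one, this probe rose in MyD88-null cells by 1.49 (SE 0.249, 2.82-fold, adjusted p = 0.0160), and in C57BL/6 cells its difference was 1.21 (SE 0.249, adjusted p = 0.0676). Which transcript each probe measures was not determined.

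**Figure D2:**
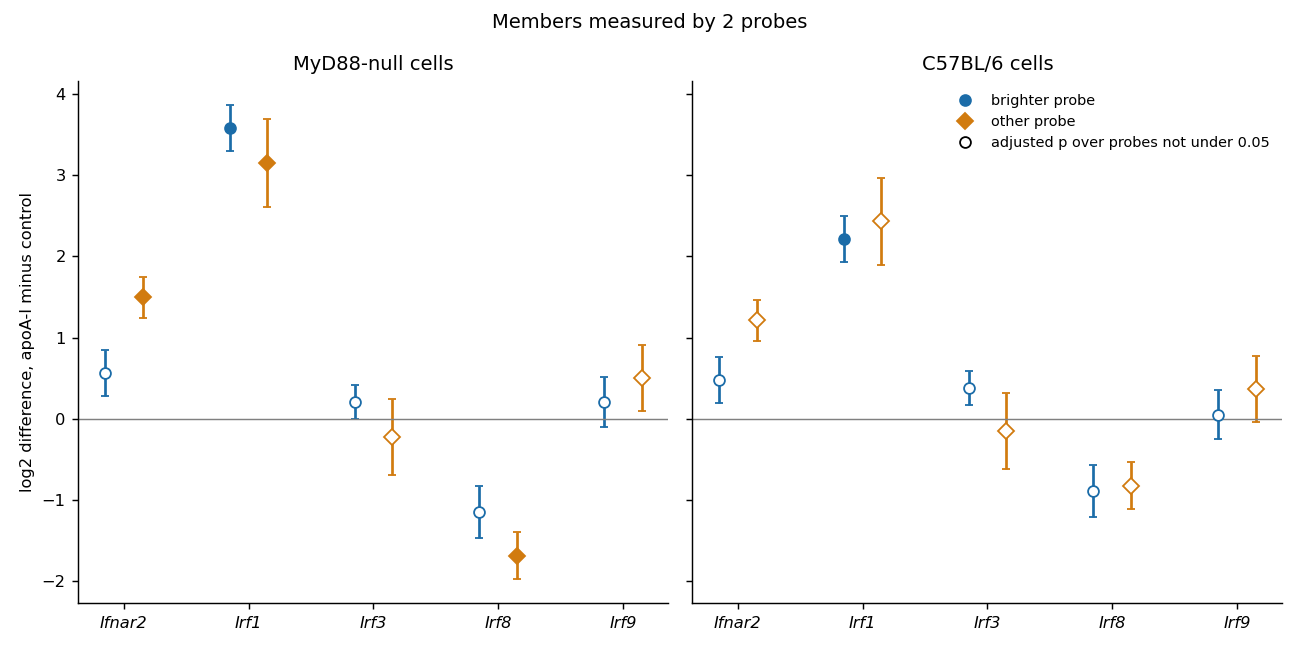
Log2 difference, apoA-I minus control, for the 5 genes measured by 2 probes, in MyD88-null cells on the left and C57BL/6 cells on the right, with SE bars and filled markers where limma's p adjusted over all probes was under 0.05. Both Irf1 probes lie far above 0 and both Irf8 probes below it, while the probes of Ifnar2 stand apart at 0.56 and 1.49 in MyD88-null cells and at 0.47 and 1.21 in C57BL/6 cells.

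Irf1 encodes an activating factor that is itself induced by interferons and by NF-kappaB and STAT signals. Its brighter probe (mm7 chr11:53733970-53734029, plus strand) was at 7.66, 7.57 and 6.79 in apoA-I-treated MyD88-null cells, against 3.84, 3.74 and 3.72 in MyD88-null controls. C57BL/6 arrays read 7.03, 7.07 and 6.35 with apoA-I, against 4.77, 4.72 and 4.33 in controls. The controls of the 2 genotypes did not overlap, MyD88-null being the lower, while the apoA-I groups did.

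Irf1 rose by 3.58 in MyD88-null cells (SE 0.285, 11.9-fold, limma adjusted p = 0.000180, 95% interval 2.94 to 4.21) and by 2.21 in C57BL/6 cells (SE 0.285, 4.64-fold, adjusted p = 0.00410, interval 1.58 to 2.85). In experiments 1, 2 and 3 the response exceeded that of C57BL/6 cells by 1.55, 1.48 and 1.06 in MyD88-null cells. The test of this difference gave 1.36 (SE 0.403, interval 0.47 to 2.26) at an unadjusted p of 0.00677, and an adjusted p of 0.9997, or 0.347 when blocked by experiment. Between control cells the difference was -0.84 (unadjusted p = 0.0141, adjusted p = 0.9998), with -0.92, -0.99 and -0.62 in the 3 experiments. Between treated cells it was 0.52 (unadjusted p = 0.0963), higher in MyD88-null cells in all 3 experiments.

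The second Irf1 probe lies 3.27 kilobases away, and its 60 bases span 146 bases of the genome (mm7 chr11:53730701-53730846), so that 86 genomic bases between its ends are not in it. Its sequence is shown because a gap of this kind usually marks a splice junction.
Irf1, gapped probe: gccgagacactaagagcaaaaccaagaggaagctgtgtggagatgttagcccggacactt
This probe was at 2.26, 3.64 and 1.67 in apoA-I-treated MyD88-null cells, against -0.21, -0.54 and -1.14 in MyD88-null controls. Among C57BL/6 samples the level was 3.09, 2.75 and 1.57 with apoA-I, against 0.46, 0.05 and -0.39 in controls. The differences were 3.15 in MyD88-null cells (adjusted p over probes 0.0190 by limma) and 2.43 in C57BL/6 cells (0.0945). Its response was the larger in MyD88-null cells in 2 of 3 experiments, with differences between the responses of -0.16, 1.48 and 0.85. Unlike on the brighter probe, the controls of the genotypes overlapped, with a difference of -0.67, MyD88-null minus C57BL/6 (limma over probes, unadjusted p = 0.242).

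Irf8 encodes a factor of the myeloid lineage that partners with other IRFs. It was lower with apoA-I in every experiment of both genotypes. Its brighter probe (mm7 chr8:119391398-119391457, plus strand) was at 3.92, 3.05 and 4.28 in apoA-I-treated MyD88-null cells, against 4.88, 4.74 and 5.05 in MyD88-null controls. For C57BL/6 cells the values were 2.92, 3.18 and 3.74 with apoA-I, against 4.14, 4.21 and 4.16 in controls. No treated array reached the controls of its genotype. The difference was -1.14 in MyD88-null cells (SE 0.317, limma adjusted p = 0.196), which passed when blocked by experiment (adjusted p = 0.0456), and -0.89 in C57BL/6 cells (SE 0.317, adjusted p = 0.434).

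The other Irf8 probe, 435 bases away, was at 0.50, 0.54 and 0.70 in apoA-I-treated MyD88-null cells, against 2.78, 2.23 and 1.79 in MyD88-null controls. The C57BL/6 cells had levels of 0.74, 0.77 and 0.62 with apoA-I, against 1.86, 1.72 and 1.01 in controls. It fell by 1.68 in MyD88-null cells when each probe was tested on its own (SE 0.291, limma adjusted p = 0.0202), with a difference of -0.82 in C57BL/6 cells (SE 0.291, adjusted p = 0.436). Here too the treated arrays of each genotype lay below its controls.

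Between controls, the brighter Irf8 probe was higher in MyD88-null than in C57BL/6 cells in all 3 experiments, by 0.74, 0.54 and 0.89, without overlap. The mean difference was 0.72 (unadjusted p = 0.0449, limma adjusted p = 0.9998). On the other Irf8 probe it was 0.73 (limma over probes, unadjusted p = 0.0300), also higher in all 3 experiments, but the controls overlapped. Irf8 is also expressed in B cells, and the 5 B cell markers examined were well above background on all arrays. Their summed level on the linear scale was 4.50 to 5.22 in MyD88-null controls, against 7.54 to 8.96 in C57BL/6 controls, so it ran the other way. Their part in the result was not tested.

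GAS elements were found in 1 promoter each of Irf1, Irf2, Irf8 and Ifnar2, and these stretches are set side by side because the genes share that pattern. By the probe tested over genes, only Irf1 among them passed in either response in the main fit. Irf8 lay lower and Ifnar2 higher with apoA-I in every experiment of both genotypes. The other probes of Irf8 and Ifnar2 passed in MyD88-null cells when each probe was tested on its own. Capitals mark the matches, all on GRCm38.p6 and the plus strand, at chr11:53769904-53769952 for Irf1, chr8:120736167-120736233 for Irf8, chr8:46739495-46739549 for Irf2 and chr16:91372549-91372597 for Ifnar2.
Irf1: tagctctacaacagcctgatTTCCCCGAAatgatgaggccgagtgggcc
Irf8: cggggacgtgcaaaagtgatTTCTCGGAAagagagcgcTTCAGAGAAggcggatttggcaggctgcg
Irf2: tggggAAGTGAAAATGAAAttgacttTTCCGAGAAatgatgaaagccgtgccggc
Ifnar2: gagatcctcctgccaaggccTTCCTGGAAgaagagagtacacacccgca
The Irf1 match begins 90 bases before the start, those of Irf8 begin 171 and 153 bases before it, and that of Ifnar2 214 bases before it. In Irf2 a GAS match follows overlapping IRF and response element cores. The stretches of Irf1 and Irf8 come from their promoter 1, and promoter 2 of both genes held 0 matches to the 4 patterns. None of the 4 patterns was found in these windows for Ifnar1, Irf3, Irf5, Irf7 or Irf9.

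Irf2, a relative of Irf1 that can repress the same sites, had no difference that passed, and its values followed the experiment. Its probe (mm7 chr8:45625001-45625060) was at -0.04, -0.76 and 1.15 in apoA-I-treated MyD88-null cells, against -1.29, -0.73 and 0.88 in MyD88-null controls. C57BL/6 arrays read -1.20, -1.31 and 0.48 with apoA-I, against -1.0, -0.88 and 1.03 in controls. Experiment 3, scanned on a day of its own, was the highest of each group. The differences were 0.50 in MyD88-null cells (SE 0.783) and -0.39 in C57BL/6 cells (SE 0.783).

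Irf3 and Irf5 encode factors that sit in resting cells and are activated by phosphorylation. The brighter Irf3 probe (mm7 chr7:41178031-41178090) stayed between 3.69 and 3.94 in apoA-I-treated MyD88-null cells, against 3.47 to 3.83 in MyD88-null controls. In C57BL/6 cells it ran from 3.52 to 4.01 with apoA-I, against 3.15 to 3.56 in controls. Its differences were 0.20 in MyD88-null cells (SE 0.204, 95% interval -0.25 to 0.65) and 0.38 in C57BL/6 cells (SE 0.204, interval -0.07 to 0.84). The dimmer Irf3 probe had differences of the opposite sign, -0.22 in MyD88-null and -0.16 in C57BL/6 cells, and neither probe passed.

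Irf5, measured by 1 probe (mm7 chr6:29469047-29469106), ran from 3.78 to 4.68 in apoA-I-treated MyD88-null cells, against 3.33 to 4.18 in MyD88-null controls. In C57BL/6 cells it ran from 3.71 to 4.36 with apoA-I, against 3.41 to 4.21 in controls. The groups overlapped, with differences of 0.40 in MyD88-null cells (SE 0.332, 95% interval -0.34 to 1.13) and 0.28 in C57BL/6 cells (SE 0.332, interval -0.46 to 1.02).

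Irf9, the DNA-binding part of the complex it forms with STAT proteins, showed no difference that passed. Its brighter probe (mm7 chr14:50476767-50476826) was at 0.68, 1.97 and 1.48 in apoA-I-treated MyD88-null cells, against 1.10, 0.98 and 1.42 in MyD88-null controls. Among C57BL/6 samples the level was 1.21, 1.27 and 1.15 with apoA-I, against 1.41, 1.13 and 0.95 in controls. The differences were 0.21 in MyD88-null cells (SE 0.302, 95% interval -0.46 to 0.88) and 0.05 in C57BL/6 cells (SE 0.302, interval -0.62 to 0.72). Its dimmer probe had differences of 0.51 in MyD88-null and 0.37 in C57BL/6 cells, which did not pass.

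**Figure D3:**
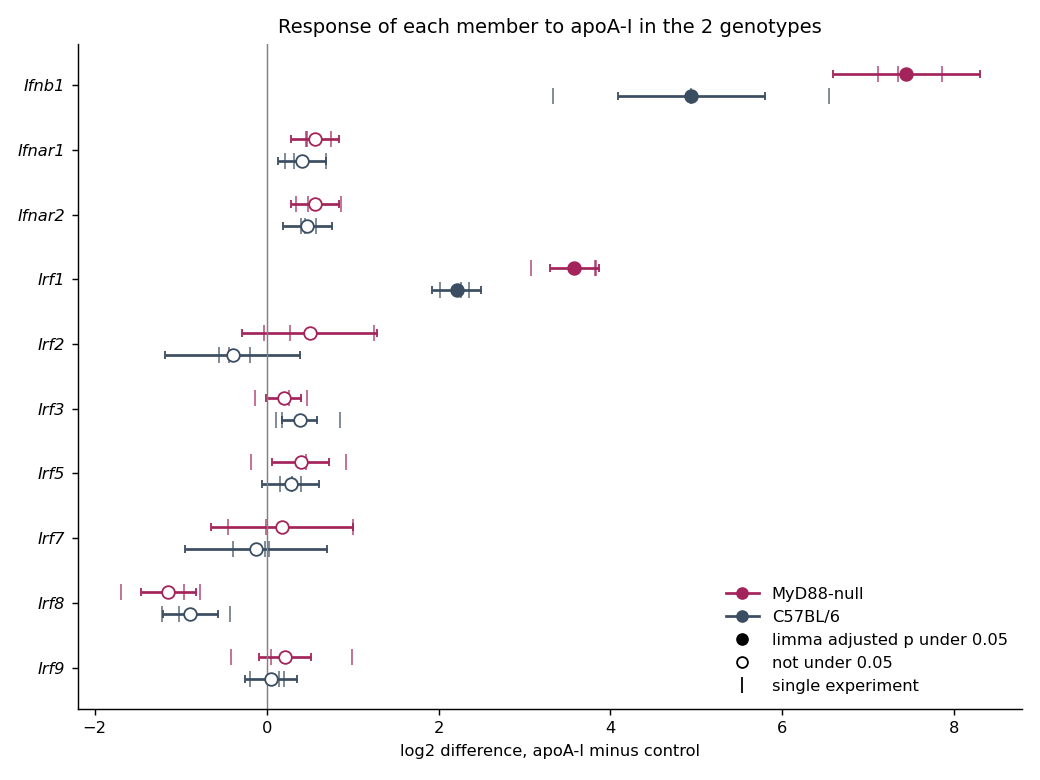
Log2 difference, apoA-I minus control, of each gene in MyD88-null cells (upper symbol of a pair) and C57BL/6 cells (lower symbol), with SE bars, ticks for the 3 experiments and filled circles where limma's adjusted p was under 0.05. Only Ifnb1 and Irf1 are filled, at 7.44 and 3.58 in MyD88-null cells and at 4.94 and 2.21 in C57BL/6 cells.

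Irf7, which amplifies interferon transcription and is itself an interferon-stimulated gene, had no difference that passed. Its probe spans 351 bases of mm7 (chr7:137682028-137682378, minus strand), 291 of which are not in its 60 bases, so that it too bridges a gap.
Irf7, gapped probe: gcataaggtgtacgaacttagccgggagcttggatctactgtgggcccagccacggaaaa
It was at -0.04, 0.70 and 1.01 in apoA-I-treated MyD88-null cells, against -0.03, -0.31 and 1.46 in MyD88-null controls. For C57BL/6 cells the values were 1.80, -0.19 and -0.54 with apoA-I, against 2.20, -0.17 and -0.57 in controls. By experiment, the response was -0.0056, 1.01 and -0.45 in MyD88-null cells and -0.39, -0.020 and 0.033 in C57BL/6 cells. The genotypes differed in opposite directions in experiments 1 and 3. In controls MyD88-null minus C57BL/6 was -2.23, -0.14 and 2.03 in experiments 1, 2 and 3, and with apoA-I it was -1.84, 0.88 and 1.55.

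The mean response of Irf7 was 0.18 in MyD88-null cells (SE 0.825, 95% interval -1.65 to 2.02) and -0.13 in C57BL/6 cells (SE 0.825, interval -1.96 to 1.71). The high C57BL/6 values of experiment 1 and the MyD88-null control of that experiment, at -0.03, were measured on the same slide. The 3 genes whose log2 levels, each centred on its mean over the 12 arrays, came nearest to Irf7 were Oas3, Usp18 and Phf11a. Their root mean square differences from it were 0.310, 0.401 and 0.436, against a median of 1.03 over all genes. Oas3 encodes an enzyme that senses double-stranded RNA and Usp18 an enzyme that removes ISG15 from proteins. Oas3 was at -1.69, -2.13 and -0.29 in MyD88-null controls and at 0.18, -1.83 and -2.85 in C57BL/6 controls, so it too was high in experiment 3 of MyD88-null cells and in experiment 1 of C57BL/6 cells. All 3 genes were highest in experiment 3 in both MyD88-null groups and in experiment 1 in both C57BL/6 groups. They were picked for their nearness to Irf7 over these same 12 arrays, so a shared pattern follows from the choice.

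**Figure D4:**
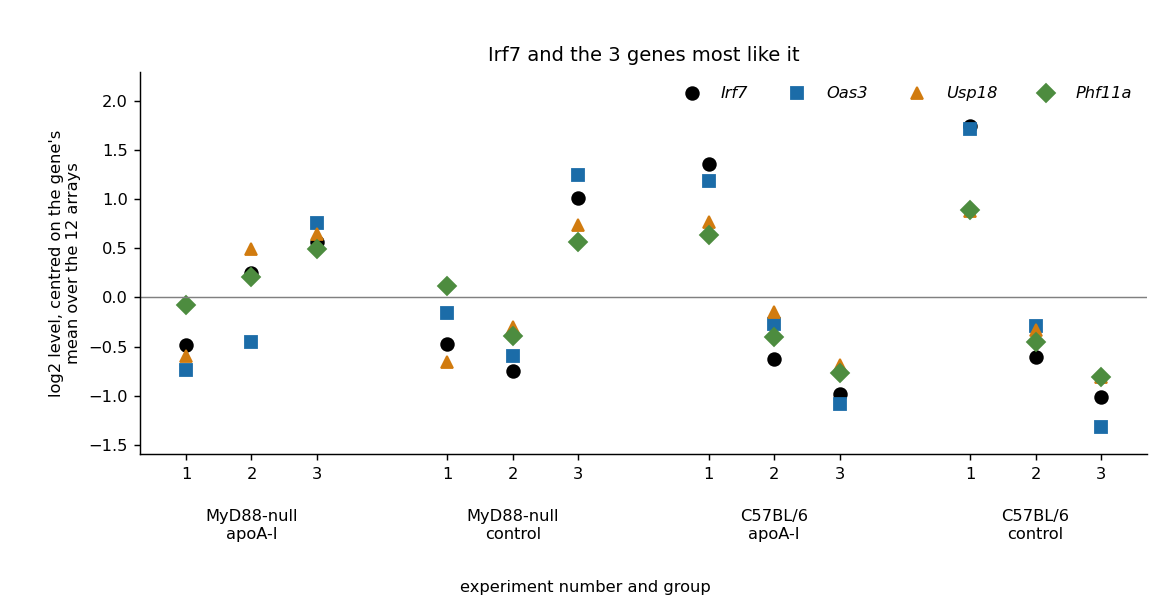
Log2 level of Irf7, Oas3, Usp18 and Phf11a on each of the 12 arrays, each gene centred on its mean over the arrays, by experiment number within each group. The genes beside Irf7 were chosen for their nearness to it over these same arrays, so they share its pattern. All are highest in experiment 3 of both MyD88-null groups and in experiment 1 of both C57BL/6 groups, with or without apoA-I.

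By the same measure, Ifnb1 was nearest to Tnfsf9 (0.976), Rnd1 (1.14) and Ccl4 (1.26), against a median of 3.30 over all genes. Tnfsf9 encodes a ligand of the tumour necrosis factor family, Rnd1 a small GTPase and Ccl4 a chemokine. Irf1 was nearest to Cd83 (0.243), Rasgef1b (0.292) and Ccrl2 (0.374), against a median of 1.57. Cd83, a surface protein of activated antigen-presenting cells, was at 7.19, 7.06 and 6.69 in apoA-I-treated MyD88-null cells, against 3.56, 3.41 and 3.77 in MyD88-null controls. The C57BL/6 cells had levels of 6.92, 7.07 and 6.67 with apoA-I, against 4.25, 4.40 and 4.26 in controls. These likenesses describe 12 arrays that share their treatment and experiment, and were not tested.

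None of the 10 genes passed in the 3 comparisons that involve genotype. For the difference between the responses, 0 of 10 passed, as did 0.0% of all genes in either direction. At an unadjusted p under 0.05 it held 1 of the 10, Irf1, and 196 genes in all, or 1.17%. In control cells 0 of 10 passed, where 0.0179% of all genes were higher and 0.0776% lower in MyD88-null cells, or 16 genes in all and 99 when blocked by experiment. With apoA-I 0 of 10 passed, where 0.0179% were higher and 0.0478% lower, or 11 genes in all and 38 with the block. In control cells Irf8 lay wholly higher in MyD88-null cells, against 6.84% of all genes, and Irf1 wholly lower, against 3.49%. With apoA-I the genotypes overlapped for all 10, where 3.21% of all genes lay wholly higher and 2.41% wholly lower. At an unadjusted p under 0.05 the control comparison held 2 of the 10, Irf1 and Irf8, and the comparison of treated cells 0, against 3.52% of all genes in control cells and 3.92% in treated cells.

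Interferon-stimulated genes are read as the output of the receptor. Of 22 such genes tested, 9 rose with apoA-I in MyD88-null cells, where 1.13% of all genes were higher, and 6 in C57BL/6 cells, where 0.812% were, and 0 fell. When blocked by experiment, 13 were higher in MyD88-null and 8 in C57BL/6 cells, and 0 lower. With that block 682 of all 16745 genes passed in MyD88-null cells and 570 in C57BL/6 cells, in either direction. Their median difference was 2.47 in MyD88-null and 1.57 in C57BL/6 cells. The list was drawn up with results of these data known, as were the other pathway lists, so their counts are no test against the shares. Cxcl10, an interferon-induced chemokine, was at 3.72, 5.04 and 4.72 in apoA-I-treated MyD88-null cells, against -4.46, -2.24 and -3.10 in MyD88-null controls, where the probe was above background on 2 of 3 arrays. C57BL/6 arrays read 3.89, 3.72 and 3.83 with apoA-I, against -1.08, 0.35 and 1.22 in controls. The difference was 7.76 in MyD88-null cells (SE 0.653, limma adjusted p = 0.000218) and 3.65 in C57BL/6 cells (SE 0.653, adjusted p = 0.0325). The C57BL/6 call was lost without C57BL/6 control replicate 1 or 2, any 1 of the C57BL/6 apoA-I arrays, MyD88-null apoA-I replicate 2 or 3, or MyD88-null control replicate 3 (adjusted p up to 0.147). The difference between these responses was 4.11, with an unadjusted p of 0.00118 and an adjusted p of 0.9997. In control cells Cxcl10 was lower in MyD88-null than in C57BL/6 cells by a difference of -3.43 (adjusted p = 0.132, or 0.0168 when blocked by experiment).

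Ifit1, Mx2 and Isg15, 3 further interferon-stimulated genes, rose in both genotypes. Ifit1, which binds viral RNA, had differences of 6.58 in MyD88-null and 4.49 in C57BL/6 cells, and the antiviral GTPase gene Mx2 of 5.26 in MyD88-null and 3.54 in C57BL/6 cells. Isg15, a ubiquitin-like modifier, had differences of 4.77 in MyD88-null and 4.46 in C57BL/6 cells. The largest of their limma adjusted p-values was 0.0134, for Ifit1 in C57BL/6 cells. That call was lost without C57BL/6 control replicate 2 or any 1 of the C57BL/6 apoA-I arrays (adjusted p up to 0.0754).

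**Figure D5:**
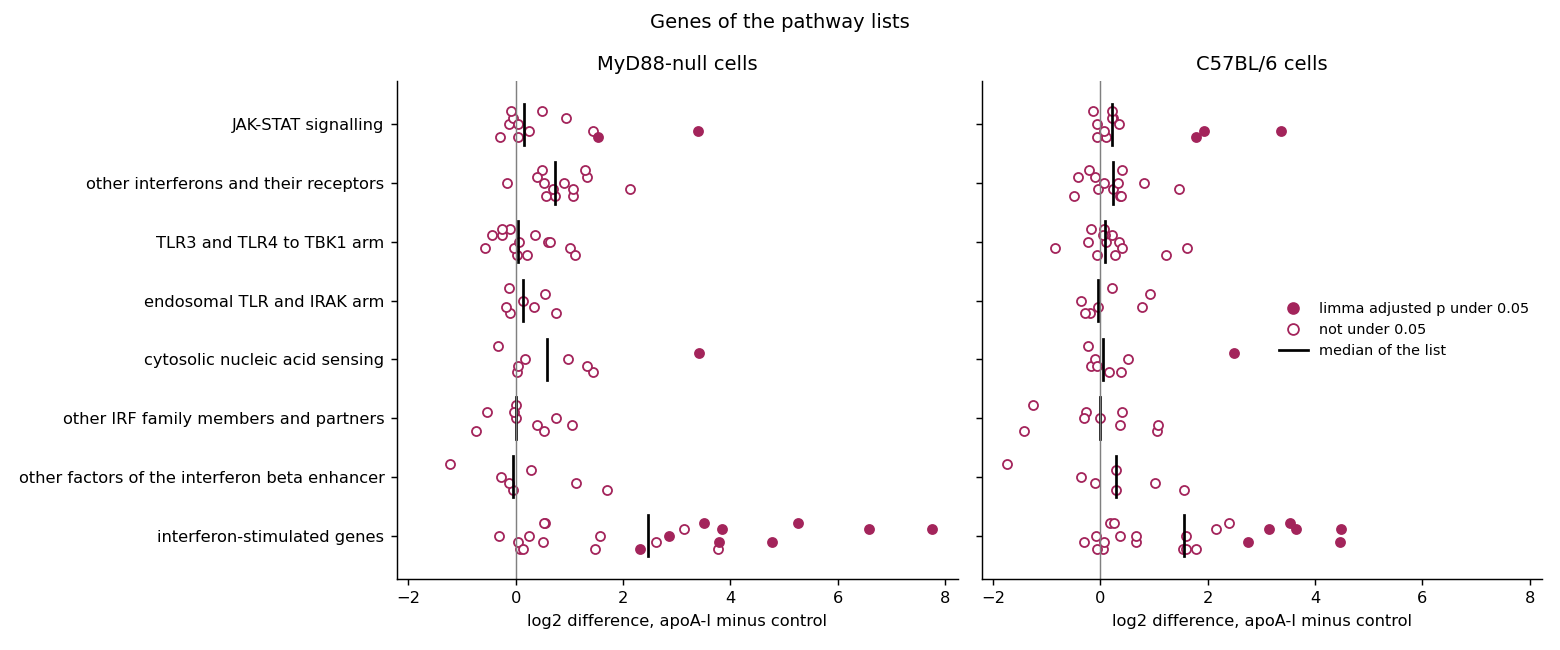
Log2 difference, apoA-I minus control, of each tested gene of 8 pathway lists in MyD88-null cells on the left and C57BL/6 cells on the right, with filled circles where limma's adjusted p was under 0.05 and a bar at the median of each list. The interferon-stimulated genes have medians of 2.47 in MyD88-null and 1.57 in C57BL/6 cells, those of other interferons and receptors 0.73 in MyD88-null and 0.24 in C57BL/6 cells, and those of cytosolic sensing 0.58 in MyD88-null and 0.051 in C57BL/6 cells, while the medians of the remaining 5 lists lie between -0.051 and 0.30.

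Below the receptor, the kinases JAK1 and TYK2 and the STATs carry the signal, and SOCS proteins restrain it. Of 12 JAK-STAT genes, 2 rose in MyD88-null cells, where 1.13% of all genes were higher, and 3 in C57BL/6 cells, where 0.812% were. Their medians were 0.15 in MyD88-null and 0.22 in C57BL/6 cells. As with the interferon-stimulated genes, results of these data were known when the list was drawn up. Socs3, an inhibitor of cytokine receptor signalling, rose by 3.40 in MyD88-null cells (SE 0.331, limma adjusted p = 0.000515) and by 3.37 in C57BL/6 cells (SE 0.331, adjusted p = 0.00109). Socs1, which restrains the interferon receptors, rose by 1.53 in MyD88-null cells (adjusted p = 0.0303) and by 1.78 in C57BL/6 cells (adjusted p = 0.0169). The Socs1 call in MyD88-null cells was lost without any 1 of the MyD88-null apoA-I arrays, MyD88-null control replicate 2 or 3, C57BL/6 apoA-I replicate 1 or 2, or C57BL/6 control replicate 2 (adjusted p up to 0.153). In C57BL/6 cells it was lost without C57BL/6 apoA-I replicate 1 or 2 or C57BL/6 control replicate 2 or 3 (adjusted p up to 0.112). Jak2 had a difference of 1.43 in MyD88-null cells (adjusted p = 0.110, or 0.00815 when blocked by experiment) and rose by 1.93 in C57BL/6 cells (adjusted p = 0.0324). Without MyD88-null apoA-I replicate 1 it passed in MyD88-null cells (adjusted p = 0.0398). The C57BL/6 call was lost without any 1 of the MyD88-null or C57BL/6 controls, MyD88-null apoA-I replicate 3, or C57BL/6 apoA-I replicate 2 or 3 (adjusted p up to 0.171). With that block Socs3 was also lower in MyD88-null than in C57BL/6 cells, by differences of -1.41 in controls (adjusted p = 0.0206, and 0.334 without the block) and -1.38 with apoA-I (adjusted p = 0.0440, and 0.632 without it).

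Of 8 genes of cytosolic nucleic acid sensing, 1 rose in each genotype, where 1.13% of all genes were higher in MyD88-null and 0.812% in C57BL/6 cells. This list was likewise drawn up with results of these data known. The median difference was 0.58 in MyD88-null cells (7 of 8 above 0) and 0.051 in C57BL/6 cells (4 of 8). Over all genes the medians were 0.052 in MyD88-null and -0.0021 in C57BL/6 cells. Ifih1, which encodes the RNA sensor MDA5, rose by 3.41 in MyD88-null cells (SE 0.375, limma adjusted p = 0.000915) and by 2.50 in C57BL/6 cells (SE 0.375, adjusted p = 0.0118). The C57BL/6 call was lost without C57BL/6 apoA-I replicate 2 or C57BL/6 control replicate 2 (adjusted p up to 0.0752). When blocked by experiment Cgas, a DNA sensor named here after its values were seen, also passed in MyD88-null cells, with a difference of 1.43 (limma adjusted p = 0.00776, and 0.163 without the block) and 0.38 in C57BL/6 cells. Of 14 genes of the TLR3 and TLR4 arm that leads to the kinase TBK1, 0 passed in either genotype. Its smallest adjusted p-values belonged to Tank, a scaffold of that kinase, with differences of 1.11 in MyD88-null and 1.22 in C57BL/6 cells, and to Cd14, the lipopolysaccharide co-receptor, with 1.01 in MyD88-null and 1.61 in C57BL/6 cells. Tank passed in MyD88-null cells without MyD88-null apoA-I replicate 1 (limma adjusted p = 0.0379, and 0.287 with it). It also passed in both genotypes with the slide as a random block (adjusted p = 0.0370 in MyD88-null and 0.0271 in C57BL/6 cells) or the scan day as a fixed block (0.0449 in MyD88-null and 0.0336 in C57BL/6 cells). Cd14 passed in C57BL/6 cells when blocked by experiment (limma adjusted p = 0.0152, and 0.131 without it). Of 7 genes of the endosomal Toll-like receptor and IRAK arm, 0 passed in either genotype.

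Other interferons and their receptors held 22 listed genes, of which 18 were on the array and 13 were tested, and 0 passed in either response. Their median difference was 0.73 in MyD88-null cells (12 of 13 above 0) and 0.24 in C57BL/6 cells (8 of 13). Over all genes the medians were 0.052 in MyD88-null and -0.0021 in C57BL/6 cells. This shift is not particular to interferons, since 6 T cell markers had medians of 0.81 in MyD88-null and 0.24 in C57BL/6 cells. Ifng had differences of 2.12 in MyD88-null cells (limma adjusted p = 0.319) and 1.46 in C57BL/6 cells (adjusted p = 0.733), and its control arrays above background numbered 1 of 3 in MyD88-null and 2 of 3 in C57BL/6 cells. Ifngr1, a chain of the interferon gamma receptor, had 0.90 in MyD88-null cells (adjusted p = 0.108, or 0.00883 when blocked by experiment) and 0.33 in C57BL/6 cells. Ifna4 was well above background on 2 of 12 arrays, 1 in each apoA-I group, and Ifna11, Ifne and Ifnk on 0 of 12. Ifna6, Ifna9, Ifna12 and Ifna13 were above background on all 12, although the interferon alpha genes are near-identical copies whose probes may share signal.

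Of 9 other IRF family members and partners, 0 passed in either response, but blocked by experiment 1 was higher in MyD88-null cells, Batf2, and 2 lower in C57BL/6 cells, Irf2bpl and Irf2bp2. Over all 16745 genes, 682 passed with the block in MyD88-null cells and 570 in C57BL/6 cells. Batf2, a partner of IRFs, had differences of 1.05 in MyD88-null cells (limma adjusted p = 0.0884, or 0.0296 with the block) and 0.36 in C57BL/6 cells. Irf2bpl, named for its likeness to an IRF2-binding protein, had -0.74 in MyD88-null cells and -1.41 in C57BL/6 cells (adjusted p = 0.106 in C57BL/6 cells, or 0.0412 with the block and 0.0464 without C57BL/6 apoA-I replicate 3). Irf2bp2, a corepressor of IRF2 named here after its values were seen, had 0.0057 in MyD88-null and -1.25 in C57BL/6 cells (adjusted p = 0.357 in C57BL/6 cells, or 0.0416 with the block). Irf4, named here for its family and after its values were seen, did not pass, with 0.40 in MyD88-null and 1.07 in C57BL/6 cells.

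Of 7 other factors that bind the interferon beta enhancer, 0 passed in either response. Blocked by experiment, 2 were higher in both genotypes, Nfkb1 and Rela, and 1 lower in C57BL/6 cells, Jun. Over all 16745 genes, that block let 682 pass in MyD88-null cells and 570 in C57BL/6 cells. Nfkb1, which encodes the p50 subunit of NF-kappaB, had differences of 1.70 in MyD88-null cells (limma adjusted p = 0.279, or 0.0202 when blocked by experiment) and 1.57 in C57BL/6 cells (adjusted p = 0.368, or 0.0310 with the block). Rela, the p65 subunit of NF-kappaB named here after its values were seen, had 1.13 in MyD88-null cells (adjusted p = 0.490, or 0.00580 with the block) and 1.02 in C57BL/6 cells (adjusted p = 0.647, or 0.0118 with the block). Jun, an AP-1 subunit, had -1.22 in MyD88-null cells and -1.73 in C57BL/6 cells (adjusted p = 0.189 in C57BL/6 cells, or 0.0265 with the block).

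Markers of the cell types a peritoneal sample could hold were read beside these results, and none passed in either response. All 7 macrophage markers were well above background on every array, with a summed linear level of 715 to 1285 in apoA-I-treated MyD88-null cells, against 628 to 745 in MyD88-null controls. In C57BL/6 cells that level ran from 764 to 923 with apoA-I, against 556 to 850 in controls. Plasmacytoid dendritic cells are strong interferon producers, and 5 of their 6 markers were above background on all arrays, while Siglech was above it on no array of 3 of the groups. Their summed level was 4.09 to 6.01 in apoA-I-treated MyD88-null cells, against 4.02 to 4.67 in MyD88-null controls, and in C57BL/6 cells 4.52 to 6.19 with apoA-I, against 4.51 to 6.77 in controls. The 6 T cell markers summed to 1.10 to 2.96 in apoA-I-treated MyD88-null cells, against 0.686 to 1.71 in MyD88-null controls, and in C57BL/6 cells to 0.910 to 2.03 with apoA-I, against 0.774 to 1.65 in controls. Of the 5 conventional dendritic cell markers, 3 were tested, while Clec9a and Cd209a were above background on no array. All 3 had positive differences in both genotypes, with a median of 0.88 in MyD88-null and 1.01 in C57BL/6 cells. The list summed to 0.830 to 2.72 in apoA-I-treated MyD88-null cells, against 0.344 to 1.78 in MyD88-null controls, and in C57BL/6 cells to 0.7502 to 2.58 with apoA-I, against 0.407 to 1.71 in controls. The ranges of treated and control cells overlapped for these 4 marker lists. The median differences of the B cell, NK cell, neutrophil, mast cell and mesothelial or fibroblast lists lay between 0.11 and 0.59 in MyD88-null cells and between -0.060 and 0.23 in C57BL/6 cells. The part of these cell types in the results was not tested.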

How the data were processed

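Peritoneal macrophage RNA was hybridised to 12 one-colour Agilent arrays, in 4 groups of 3, which the titles and source names of the samples give. The deposited scanner files hold spot intensities, which per the submitters' processing notes were extracted with Agilent Feature Extraction 9.5. Per the file headers, the processed intensity is the Cy3 signal after background subtraction and detrending within an array, and the mean and local background intensities are raw pixel summaries. Processed intensities were not scaled between arrays. A deposited table of processed values correlated at 0.99257 to 0.99974 across probes with log10 of each array's processed intensity, from which its log10 scale was read. How it was normalized is not stated in the labels or files, and its centring stays unknown. The column medians of that deposited log10 table for replicates 1, 2 and 3 were 1.8333, 1.846 and 1.8225 for the MyD88-null apoA-I group and 1.8386, 1.8676 and 1.8435 for MyD88-null controls. They were 1.8402, 1.841 and 1.8346 for the C57BL/6 apoA-I group and 1.8435, 1.8408 and 1.8283 in C57BL/6 controls. The table served as an alternative only.

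From the deposited intensities, each log2 level was computed as the log2 processed intensity less its 75th percentile on the array, without outlier spots. Repeat spots, present for 245 probes, were averaged, no array had over 6 saturated probes, and saturated spots were kept. Of 41174 probes, 24351 were kept because a group had them well above background on each of its arrays. The probe with the highest mean stood for a gene, which left 16745 genes. Probe positions are those of the files, on build mm7, and exon annotation was not used. RefSeq tables named 22951 probes by accession, 124 by another accession, 6582 by current symbol and 3077 by synonym. The file's own name was kept for 8440. RefSeq promoters are on GRCm38.p6.

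A linear model with a mean a group was fitted to the 12 arrays with limma 3.58.1 in R 4.3.3, with 8 residual and 2.16 prior degrees of freedom. It was tested on simulated data. Two-sided p-values were adjusted by Benjamini and Hochberg's method over the 16745 genes, and 0.05 was the threshold. The 10 genes and all lists were chosen with earlier results of these data known. Named besides the 10 were, in each pathway list, up to 4 genes with the largest change among those that passed in a response, or up to 2 with the smallest adjusted p where none passed. For Ifnb1, Irf1 and Irf7 the 3 genes most like them were named, and Myd88 as the targeted gene.

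The series' design text describes 3 experiments of 4 samples. Samples of the same number deviated together from their group means, with correlations of 0.296 to 0.859 in every pair, against -0.812 to 0.547 between different numbers. On these grounds the numbers were taken to pair the samples. The correlations alone cannot show this. Deviations cancel out within a group, so the second range follows in part from the first, the ranges overlap, and replicates 3 shared a scan day. The fit without the experiment as a block remained the main one, and the fit with it an alternative. Other alternatives changed the scaling, background correction, filter, probe choice, slide, scan day, groups fitted, variance model, the treatment of the conflicting descriptions and each array in turn. The number of arrays limits the precision.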

Additional observations from a re-analysis of the deposited data

How the results depend on the processing

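In MyD88-null cells 2 of the 10 genes passed, Ifnb1 and Irf1. The count was 1 with only probes above background on all arrays, which leaves Ifnb1 untested, 4 with every probe on its own (Ifnar2 and Irf8 added), 3 with the experiment as a replicate block or the slide as a random block (Irf8 added), and 2 whichever array was left out. With every probe on its own, a gene counted by its probe with the smallest p, so a gene with 2 probes could pass by either. In C57BL/6 cells 2 passed, and the count was 1, Irf1, with normexp background correction, no filter on dim probes, only probes above background on all arrays, only the 2 groups compared, or without both samples with conflicting descriptions. It was 1 to 2 when each array was left out. It was 3 with the slide as a random block and 2 with the replicate block. With the treatment taken from the descriptions, 0 of 10 genes passed in either response, as did 0 of all genes. Irf1 passed in both genotypes in 25 of 25 alternatives that kept the labelled treatments, with log2 differences of 3.13 to 3.85 in MyD88-null and 2.01 to 2.45 in C57BL/6 cells. With every probe on its own this rested on the brighter Irf1 probe, and the other did not pass in C57BL/6 cells (limma adjusted p over probes 0.0945). Ifnb1 passed in 24 of 24 in MyD88-null cells (3.81 to 7.88) and in 14 of 24 in C57BL/6 cells (2.71 to 5.49). No gene of the 10 passed in a genotype comparison or in the difference of responses under any alternative; fitting only the groups compared was not possible for that difference, which needs all 4. The median over all genes in MyD88-null cells was -0.40 with the array median as scale, against 0.052, and with that scale the call of Socs1 was lost in MyD88-null cells, and those of Cxcl10, Ifih1, Jak2 and Socs1 in C57BL/6 cells. With no filter on dim probes, and with only the 2 groups compared, the calls of Socs1 in MyD88-null cells and of Cxcl10, Jak2 and Socs1 in C57BL/6 cells were lost, and with quantile normalization that of Cxcl10 in C57BL/6 cells. Without both samples with conflicting descriptions, those of Socs1 in MyD88-null cells and of Cxcl10, Ifih1, Ifit1, Jak2 and Socs1 in C57BL/6 cells were lost. Under the other alternatives, genes passing ranged from 83 (array median) to 682 (replicate block) in MyD88-null cells and from 59 (without both samples with conflicting descriptions) to 755 (slide as a random block) in C57BL/6 cells. Between control cells 16 genes passed, with a range of 1 (only the 2 groups) to 99 (replicate block), and between treated cells 11, with a range of 2 (treatment from the descriptions) to 44 (slide as a random block). The causes of these changes were not tested.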
